A study of Sus scrofa with 16 samples.

Results

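CD3G, CD4, CD79B and GNLY are genes read as markers of lymphocytes and cytotoxic cells, and they were followed here in the left ventricle of exercise-trained and sedentary pigs. They were taken by their gene symbol in the annotation of the Affymetrix porcine array, and the choice of these genes was made with earlier results of these data known. The 4 genes are 4 of 6765 named by a single symbol, and they are read by 5 of the 23935 probe sets tested. A probe set is a group of short probes whose signals are read together. CD4 has 2 probe sets and each of the other genes has 1. All 4 were found by Entrez identifier in the RefSeq gene table under the same symbol, and that table lists NKL as a synonym of GNLY.

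The exercised group held 8 pigs and the sedentary group 8, with 4 females and 4 castrated males in each. All were Yorkshire x Landrace swine aged 2 to 3 months, studied 4 to 5 weeks after the protocol began. Total RNA came from crushed frozen ventricle, with 1 array per animal. The labels do not name the kind of exercise.

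CD3G codes for the gamma chain of CD3, the signalling complex that carries the T cell receptor to the surface of T cells. CD4 codes for the co-receptor of helper T cells, which binds class II histocompatibility molecules on antigen-presenting cells. CD79B codes for the beta chain of the pair that passes on signals from the B cell receptor. GNLY codes for granulysin, a pore-forming protein kept in the granules of cytotoxic T cells and natural killer cells. A healthy ventricle consists mostly of cardiomyocytes, endothelial cells and fibroblasts, with few lymphocytes. In whole tissue a difference in the number of cells of a type and a difference in RNA per cell cannot be told apart.

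The arrays were alike in their distributions, and over all probe sets each correlated at 0.988 (sedentary 8) to 0.994 with the mean of the rest. They differed in the 42 probe sets for bacterial poly-A control transcripts, which are added to RNA before labelling. These averaged 7.63 ± 0.33 log2 on 11 arrays and 5.99 ± 0.20 on the other 5 (SD over arrays). The labels do not name this split. The 5 arrays with low controls came from exercised 7 and 8 and sedentary 6, 7 and 8, of which sedentary 8 was the only female. As a check of the tissue label, 24 cardiomyocyte probe sets had a median signal of 12.76 log2, at the 99.2nd percentile of all tested. Their mean ran between 11.03 and 11.26 log2 on exercised arrays and between 11.00 and 11.18 on sedentary arrays.

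CD3G, CD79B, GNLY and 1 of the CD4 probe sets rose with exercise, by 0.26 to 0.69 log2, while the other CD4 probe set was lower and did not pass. At a limma adjusted p under 0.05, 4 of the 5 were higher and 0 were lower in exercised animals. Of all 23935 probe sets 13.4% passed in either direction, 6.48% higher and 6.88% lower. The median difference over the 5 was 0.34 log2, against 0.00 over all probe sets tested, of which 50.9% were positive. At an unadjusted p under 0.05 the count was 5 of 5, against 27% of all probe sets.

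GNLY gave a bright signal, with a mean at the 85.1st percentile of the tested probe sets. It measured 8.42 log2 in the lowest exercised animal, 9.04 at the median and 9.64 in the highest, against 7.67, 8.46 and 8.80 in sedentary animals. The highest were exercised 2 and exercised 1, both females, and the lowest was sedentary 8. The groups overlapped, since exercised 5, the lowest of its group, lay below 4 sedentary animals, yet 5 exercised animals lay above every sedentary one. The means were 9.06 ± 0.44 log2 in exercised and 8.37 ± 0.37 in sedentary animals (SD, n = 8 each). The difference was 0.69 log2 (SE 0.19, 95% confidence interval 0.28 to 1.09), 1.61-fold higher, with a limma adjusted p of 0.0261. This call depended on single animals, since leaving out exercised 1, 2, 3 or 8 or sedentary 7 gave adjusted p values of 0.0574, 0.0544, 0.0516, 0.0513 and 0.0538, while the difference was 0.58 log2 or more in each of the 16 fits that left out an animal. With dim probe sets left out of the adjustment GNLY did not pass either: its adjusted p was 0.0547 above the 40th percentile of signal, where 4.39% passed, and 0.115 above the 60th, where 0.804% passed. The other members lay below both.

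CD3G measured 5.40 log2 in the lowest exercised animal, 5.53 at the median and 6.09 in the highest, against 4.52, 5.09 and 5.50 in sedentary animals. Exercised 1 and 2 were again the highest and sedentary 8 the lowest. All 8 exercised animals lay above the sedentary mean and 5 lay above every sedentary animal, so the groups overlapped in their inner ranges. The means were 5.66 ± 0.26 log2 in exercised and 5.10 ± 0.35 in sedentary animals (SD, n = 8 each). The difference was 0.56 log2 (SE 0.14, interval 0.26 to 0.85), a 1.47-fold rise, with a limma adjusted p of 0.0155. It passed in each of the 16 fits that left out an animal, at 0.45 to 0.62 log2, the smallest without sedentary 8. The GNLY difference was also smallest without that animal, at 0.58 log2.

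CD79B was the member whose groups did not overlap. It measured 4.04 log2 in the lowest exercised animal, 4.08 at the median and 4.38 in the highest, against 3.73, 3.85 and 4.02 in sedentary animals. The gap between the lowest exercised and the highest sedentary animal was 0.0138 log2. Over all probe sets 3.12% had groups without overlap, 1.45% with exercised animals higher, and among those of like signal (bin 2 of 10 by mean signal) 6.39% did. The means were 4.13 ± 0.11 log2 in exercised and 3.87 ± 0.097 in sedentary animals (SD, n = 8 each), a difference of 0.26 log2 (SE 0.063, interval 0.13 to 0.39). That is a 1.20-fold rise with a limma adjusted p of 0.0126, and it passed in all 16 fits that left out an animal.

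**Figure D1:**
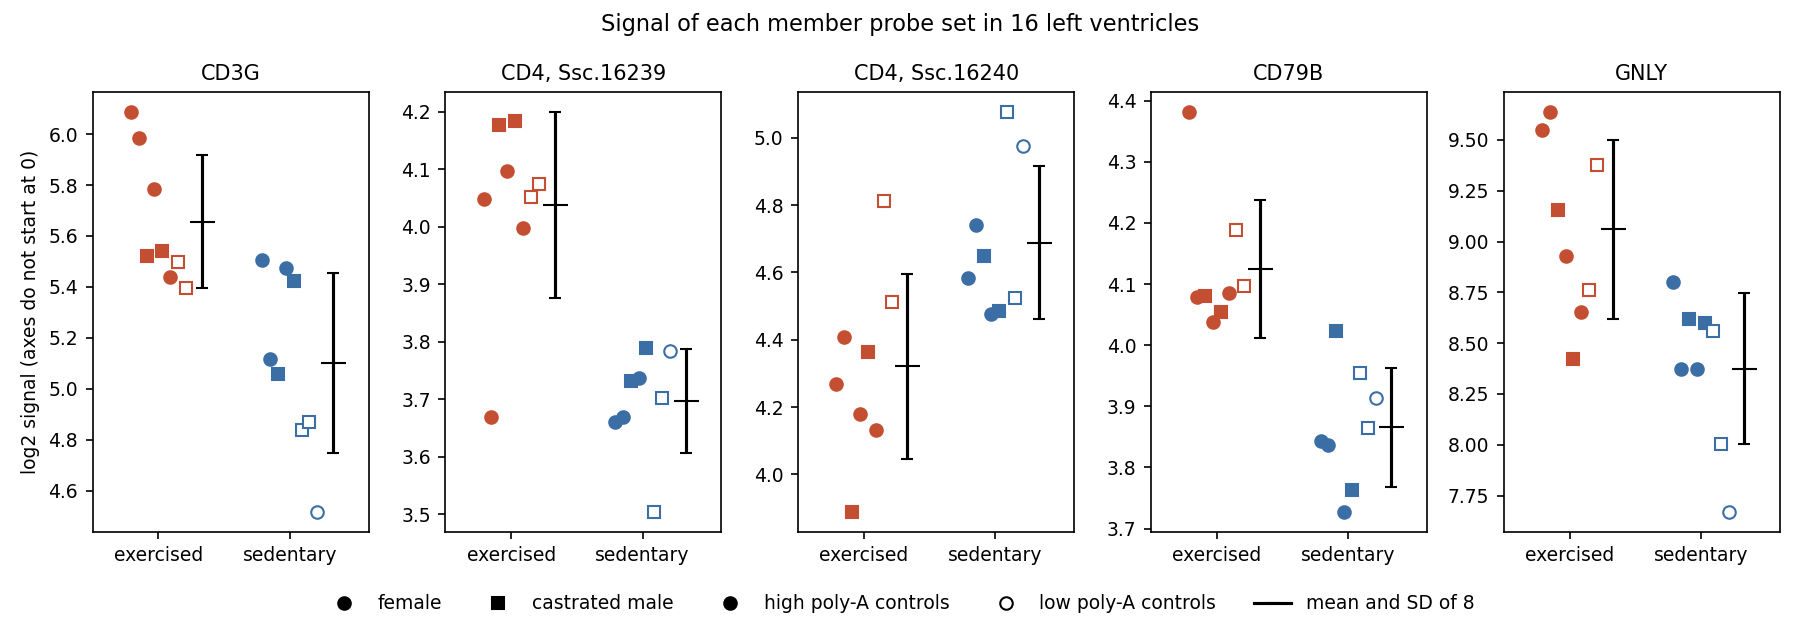
Log2 signal (vertical axes, each with its own range and none starting at 0) of the 5 probe sets in every animal, exercised left of sedentary, with the mean and SD of 8 as bars, females as circles, castrated males as squares, and arrays with low poly-A controls as open symbols. CD79B separates the groups by 0.0138 log2, exercised 1 and 2 top both CD3G and GNLY, and sedentary 8 is lowest in both.

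The probe sets of CD4 went opposite ways. The set Ssc.16239.1.S1_s_at measured 3.67 log2 in the lowest exercised animal, 4.06 at the median and 4.18 in the highest, against 3.50, 3.72 and 3.79 in sedentary animals. Exercised 2, at 3.67, lay among the sedentary animals, and the other 7 exercised animals lay above all of them. The means were 4.04 ± 0.16 log2 in exercised and 3.70 ± 0.091 in sedentary animals (SD, n = 8 each). The difference was 0.34 log2 (SE 0.068, interval 0.20 to 0.49), a 1.27-fold rise, with a limma adjusted p of 0.00392, the smallest of the 5. It passed in all 16 fits that left out an animal, at 0.31 to 0.39 log2.

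The second set, Ssc.16240.1.S1_a_at, was the brighter of the pair. It measured 3.89 log2 in the lowest exercised animal, 4.32 at the median and 4.81 in the highest, against 4.48, 4.62 and 5.08 in sedentary animals. Here 6 exercised animals lay below every sedentary one, while exercised 7 and 8, both with low poly-A controls, lay inside the sedentary range. The means were 4.32 ± 0.28 log2 in exercised and 4.69 ± 0.23 in sedentary animals (SD, n = 8 each). The difference of -0.37 log2 (SE 0.124, interval -0.63 to -0.10) did not pass, with a limma adjusted p of 0.0618. Without exercised 7 it was -0.44 log2 and passed (adjusted p = 0.0253), the only pass among the 16 fits that left out an animal. Those fits gave -0.44 to -0.28 log2, with limma adjusted p values up to 0.116. When the probe sets of each gene were averaged first, 3 of the 4 genes passed, against 8.56% of 6765, and CD4 stood at -0.01 log2 (interval -0.15 to 0.12, adjusted p = 0.932), and the array gave no single direction for CD4. By the maker's naming, the ending _s_at marks probes that match several transcripts and _a_at marks probes shared by transcripts of the same gene. Which transcripts either set reads in these ventricles was not tested.

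The brightness of the signal differed widely among the members. The CD4 sets lay at the 13.0th and 24.4th percentiles of mean signal, CD79B at the 15.5th and CD3G at the 37.2nd. The share of probe sets passing varied with this level when they were parted into 10 bins by mean signal. In the bin that holds CD79B and the dimmer CD4 set 21.9% passed, in that of the brighter CD4 set 26.6% and in that of CD3G 26.1%. In the bin that holds GNLY 3.8% passed, and 2.26% passed as higher in exercised animals. For a measure of dim signal, 42 probe sets of 33 genes that belong to tissues other than heart, such as the hormone gene GCG and the lung surfactant gene SFTPB, had a median level at the 26.5th percentile. They were not all dim: 1 of the 42, for the gut and brain peptide gene CCK, named after its values were seen, lay at the 99.5th percentile, and the rest lay below the 60th. Of these, 3 passed higher and 7 lower, 23.8% in all, with GCG at -0.62 log2 (adjusted p = 0.00111) and SFTPB at -0.32 (adjusted p = 0.00534). The files used here hold no detection call per probe set, so whether CD4 and CD79B lay above background was not tested.

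**Figure D2:**
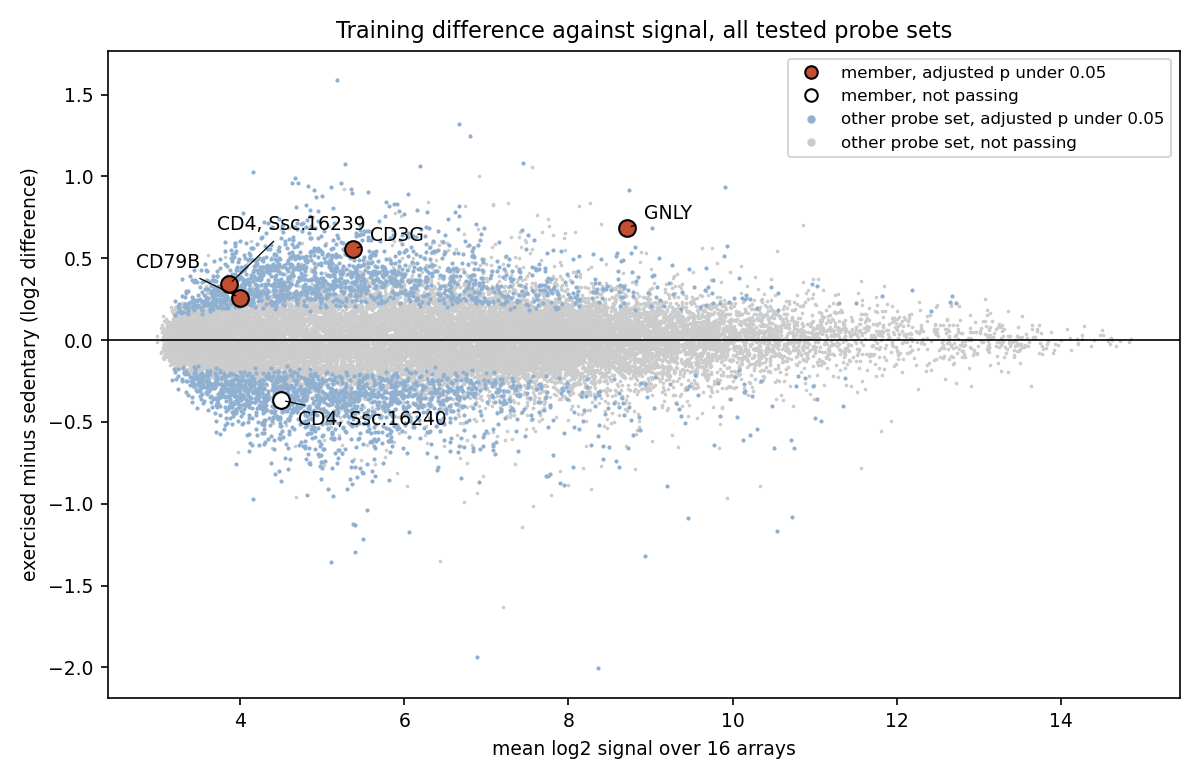
Difference in log2 signal (vertical axis, exercised minus sedentary) against the mean log2 signal over 16 arrays (horizontal axis) for each probe set tested, with those passing in blue and the members as large circles, filled where the adjusted p was under 0.05. GNLY at 0.69 lies on the bright side where few probe sets passed, and the other 4 lie on the dim side where many did.

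Within each sex the differences kept the direction of the whole group for each of the 5 probe sets. In females the log2 differences were 0.89 for GNLY, 0.67 for CD3G, 0.32 for CD79B, and 0.24 and -0.45 for the CD4 sets. In castrated males they were 0.49 for GNLY, 0.44 for CD3G, 0.20 for CD79B, and 0.44 and -0.29 for the CD4 sets. With 4 animals per group and sex, 0 of 5 passed in females by limma (3.72% of all probe sets passed), though 5 had an unadjusted p under 0.05 (18.2% of all). In castrated males 1 of 5 passed (3.77% of all, 1.63% higher), the CD4 set Ssc.16239.1.S1_s_at (adjusted p = 0.0193), and 3 had an unadjusted p under 0.05 (17.3% of all).

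The female effect minus the castrated male effect was tested directly. It was 0.40 log2 for GNLY (interval -0.41 to 1.21), 0.23 for CD3G (-0.37 to 0.82), 0.11 for CD79B (-0.16 to 0.38), and -0.20 and -0.16 for the CD4 sets. The test called 0 of 5 members and 0 of all 23935 probe sets by limma, while 621 probe sets (2.59%) and 0 members had an unadjusted p under 0.05. Each of the 5 intervals takes in, in at least 1 direction, a difference as large as the training difference itself. A sex difference of that size was thus not excluded with 4 animals each. For the CD4 set Ssc.16239.1.S1_s_at the interval ran from -0.49 to 0.09 and took it in only below 0. Between females and castrated males, averaged over training, 0 of 5 members passed by limma and 0 had an unadjusted p under 0.05, against 22 probe sets (0.0919%) and 9.26% of the whole table.

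The groups of 4 within a sex did not overlap for 13.7% of all probe sets in females and 10.7% in castrated males. The CD4 set Ssc.16239.1.S1_s_at had no overlap in castrated males and the set Ssc.16240.1.S1_a_at had none in females. CD79B had none in either sex, as follows from its groups of 8. Exercised females measured 4.04 to 4.38 log2 and sedentary females 3.73 to 3.91. Exercised castrated males measured 4.05 to 4.19 and sedentary castrated males 3.76 to 4.02. CD3G was tightly grouped in exercised castrated males, at 5.49 ± 0.064 log2, against 5.05 ± 0.27 in sedentary castrated males (SD, n = 4 each). Exercised females stood at 5.82 ± 0.29 and sedentary females at 5.15 ± 0.46 (SD, n = 4 each), and both sexes overlapped between training groups. GNLY likewise overlapped in both sexes.

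The poly-A split moved with CD3G, GNLY and the brighter CD4 set among sedentary animals. The 3 sedentary arrays with low controls averaged 4.74 log2 for CD3G, and the 5 with high controls averaged 5.32. For GNLY they averaged 8.08 and 8.55, though sedentary 6, at 8.56, lay within the range of the high arrays (8.37 to 8.80). The brighter CD4 set differed in the other direction, at 4.86 on the low and 4.59 on the high arrays. CD79B stood at 3.91 on the low and 3.84 on the high arrays, and the dimmer CD4 set at 3.66 on the low and 3.72 on the high arrays. Among exercised animals GNLY averaged 9.07 on the low and 9.06 on the high arrays. There CD3G averaged 5.45 on the low and 5.73 on the high arrays, and the brighter CD4 set 4.66 and 4.21. CD79B averaged 4.14 and 4.12 there, and the dimmer CD4 set 4.06 and 4.03. The plain exercised minus sedentary difference for CD3G was 0.41 log2 among high arrays and 0.71 among low arrays. For GNLY it was 0.50 and 0.99, for CD79B 0.28 and 0.23, and for the CD4 sets 0.31 and 0.40, and -0.38 and -0.20. The low arrays are 2 against 3 and were not tested apart.

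With the split as a block, 5 of 5 probe sets passed, against 18.1% of all, and the brighter CD4 set passed as lower (-0.32 log2, adjusted p = 0.0314). On the 11 arrays with high controls alone 2 of 5 passed, against 10.3% of all. These were the CD4 sets, at 0.34 (adjusted p = 0.0301) and -0.40 log2 (adjusted p = 0.0347). CD79B kept its size at 0.26 log2 but did not pass (adjusted p = 0.0796). CD3G stood at 0.37 log2 (adjusted p = 0.100) and GNLY at 0.43 (interval -0.03 to 0.88, adjusted p = 0.211), both smaller than on all 16 arrays. The part of the split in these differences was not tested beyond these values.

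**Figure D3:**
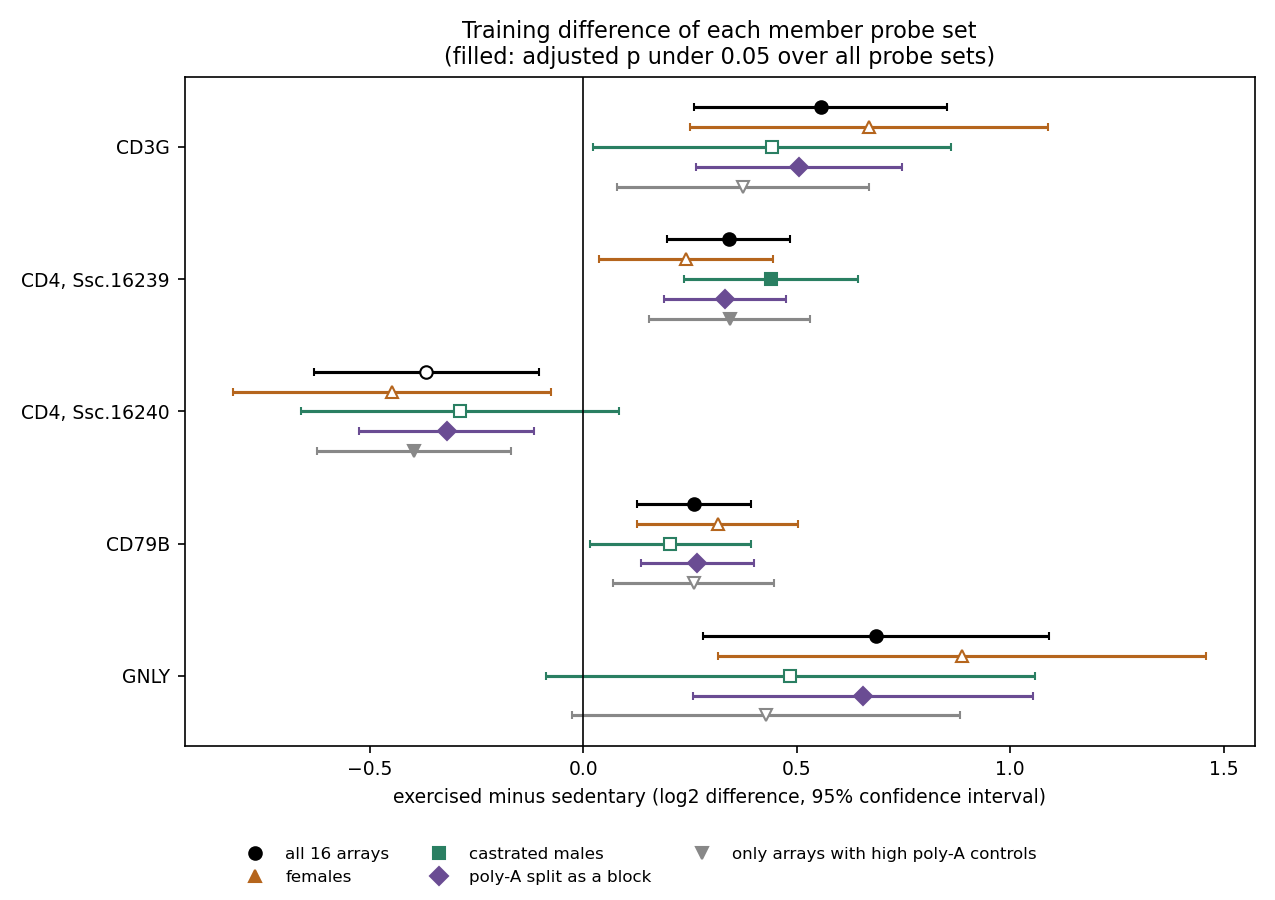
Exercised minus sedentary log2 difference (horizontal axis) with its 95% confidence interval for each probe set on all 16 arrays, in females, in castrated males, with the poly-A split as a block and on the 11 arrays with high controls, filled where the adjusted p was under 0.05. The 5 estimates of a probe set lie on one side of 0, and GNLY runs between 0.43 and 0.89.

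Animals did not keep their rank across all members, though CD3G and GNLY shared exercised 1 and exercised 2 as highest and sedentary 8 as lowest. Exercised 1 was the highest of 16 in CD3G and CD79B and second in GNLY, but sixth in the CD4 set Ssc.16239.1.S1_s_at. Exercised 2 was first in GNLY and second in CD3G, but fourteenth in that CD4 set. Sedentary 8 was last in CD3G and GNLY, and ninth in that CD4 set.

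Correlations between members were taken within each group of 8, over 14 relations adjusted together, each as Pearson's r and Spearman's rank coefficient with an exact permutation test. CD3G and GNLY had r = 0.62 in exercised animals (exact p = 0.108; Spearman 0.43, exact p = 0.299). In sedentary animals they had r = 0.745 (exact p = 0.0319; Spearman 0.62, exact p = 0.115), with an adjusted p of 0.271 for r, the smallest in the family. Without the 2 animals farthest from the median of CD3G, r was -0.16 in exercised and 0.29 in sedentary animals (n = 6 each). Leaving out the extremes of CD3G narrows its range and can by itself lower r. It cannot tell whether the relations rested on those animals. Over 16 arrays, with the training-by-sex means taken out, r was 0.67, a description without a test. Among the 6 exercised animals with high poly-A controls r was 0.82 (exact p = 0.0625; Spearman 0.66, exact p = 0.175), and no correlation was computed for the 5 such sedentary animals, being fewer than 6. Among those 5, sedentary 1 was highest in both genes, at 5.50 log2 for CD3G and 8.80 for GNLY, while sedentary 4 had the next highest CD3G, at 5.48, with a GNLY of 8.37 near the lowest.

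The CD4 sets had r = -0.24 in exercised animals (exact p = 0.519; Spearman -0.19, exact p = 0.665) and -0.53 in sedentary animals (exact p = 0.179; Spearman -0.48, exact p = 0.243). CD3G and the brighter CD4 set had r = -0.74 in sedentary animals (exact p = 0.0387, adjusted 0.271; Spearman -0.69, exact p = 0.0694), and -0.65 without the 2 farthest animals. In exercised animals that pair had r = -0.09 (exact p = 0.831; Spearman -0.14, exact p = 0.752). CD79B and CD3G had r = -0.63 in sedentary animals (exact p = 0.0921, Spearman -0.69). In exercised animals they had r = 0.50 (exact p = 0.172, Spearman -0.19). CD79B and the brighter CD4 set had r = 0.60 in sedentary animals (exact p = 0.117, Spearman 0.71). In exercised animals that was 0.20 (exact p = 0.568, Spearman 0.31). Each gene entered by its brightest set, so the dimmer CD4 set was compared only with the other CD4 set. None of the 14 relations passed after adjustment.

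**Figure D4:**
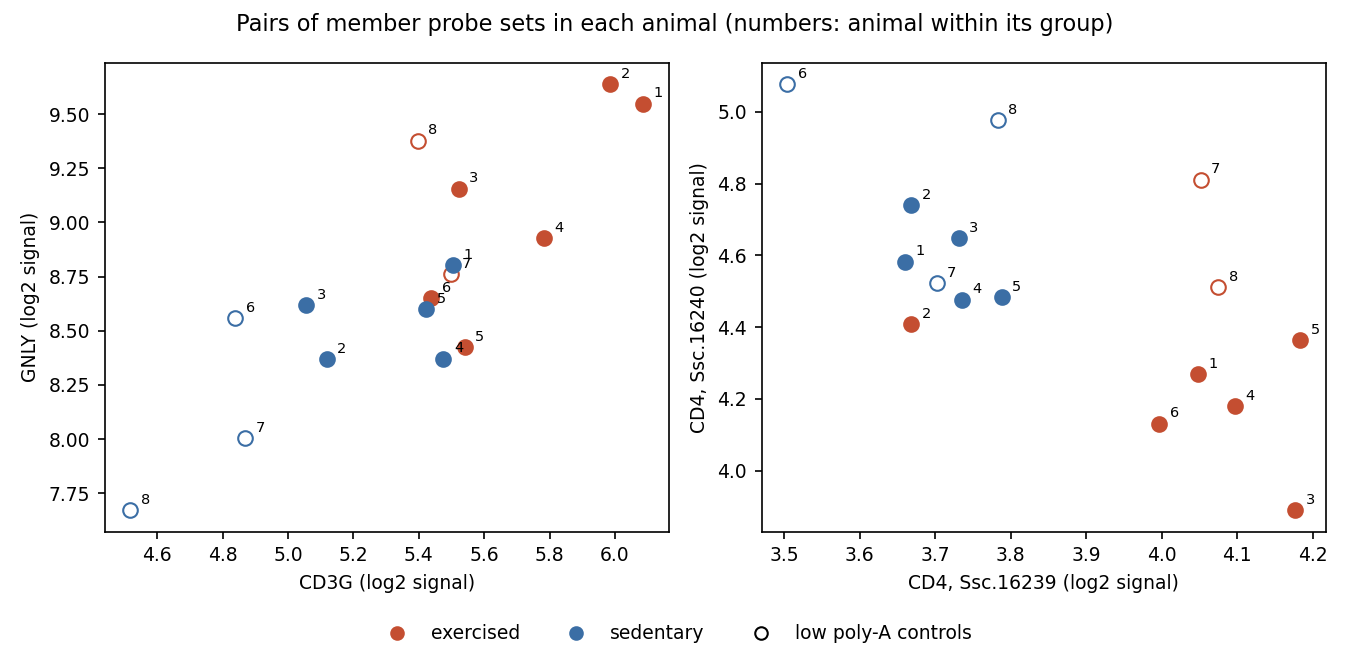
Log2 signal of GNLY against CD3G (left) and of the brighter against the dimmer CD4 probe set (right) in each animal, numbered within its group, exercised in red and sedentary in blue, with low poly-A controls open. Exercised 1 and 2 stand apart at the top of CD3G and GNLY, sedentary 8 at the bottom, and the dimmer CD4 set parts the groups except for exercised 2.

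The genes whose signal was most like that of each member were sought among 10069 probe sets with a single symbol, over 16 arrays that share the training difference and the poly-A split. These are descriptions and carry no test. For CD3G they were SMC4, a condensin subunit (r = 0.93), ARPC5, a subunit of the actin-nucleating Arp2/3 complex (0.92), and CDC5L, a spliceosome component (0.90). Once the training-by-sex means were taken out, the first was CD3E, which codes for another chain of CD3 (r = 0.93, and 0.78 in level), ahead of ARPC5 and the peptidase gene ENPEP (0.92 each).

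For GNLY the most alike in level were IQGAP3, a scaffold protein gene (r = 0.93), BIN2, a membrane-curving protein of blood cells (0.88), and AIF1, a macrophage marker (0.87). In deviations they were ACO1, cytosolic aconitase (0.92), SRPX2 (0.91) and IQGAP3 (0.88). For CD79B they were GALT, an enzyme of galactose use (0.88), BAK1, a gene of the apoptosis machinery (0.87), and LOC100621931 (0.87). In deviations they were the cytokine signalling inhibitor SOCS3 (0.90), BAZ2B (0.85) and BAK1 (0.85).

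The dimmer CD4 set was most like TMEM176A (r = 0.89), the aminopeptidase gene ANPEP (0.88) and PAN2, a deadenylase subunit (0.87), and in deviations SERPIND1 (0.85), GCM1 (0.83) and MRPL39 (0.83). The brighter one was most like ZCCHC8 (0.86), PPP1R15A, a stress-response phosphatase subunit (0.85), and RNF44 (0.85), and in deviations ITIH1 (0.91), USP7 (0.87) and PLEKHA8 (0.86). The CD4 sets themselves had r = -0.65 in level and -0.51 in deviations over 16 arrays, so on either measure their lists could hold no gene in common.

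Of the other T cell genes listed, 18 of 35 had a probe set with a single symbol. Among their 26 probe sets 3 passed higher, 2 lower and 21 did not pass, 19.2% in all, with a median difference of 0.04 log2. All 3 that passed higher belong to CD247, the zeta chain that signals beside CD3, at 0.55 (adjusted p = 0.000397), 0.34 (adjusted p = 0.0459, its brightest set) and 0.32 (adjusted p = 0.0407). The fourth CD247 set was lower by a larger amount, at -0.64 log2 (adjusted p = 7.77e-05), so CD247, like CD4, has no single direction. Of the 16 fits that left out an animal, the set at 0.34 passed in 2 (adjusted p up to 0.0902) and the set at 0.32 in 5 (up to 0.0806). IL7R, the interleukin 7 receptor of resting lymphocytes, fell by 0.23 log2 (adjusted p = 0.0188). IL7R and the CD247 sets at -0.64, 0.55 and 0.32 lay in a bin of signal where 26.6% of all probe sets passed. GATA3, a helper T cell transcription factor, stood at -0.28 (adjusted p = 0.0543, not its brightest set) and LEF1, a transcription factor of early T cells, at 0.20 (adjusted p = 0.0649).

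CD3D and CD3E, which code for the delta and epsilon chains of CD3, did not pass, nor did CD8A; all 3 were named after their values were seen. CD3D measured 6.35 ± 0.13 log2 in exercised and 6.16 ± 0.16 in sedentary animals (SD, n = 8 each), a difference of 0.19 (limma adjusted p = 0.118). CD3E measured 6.04 ± 0.35 in exercised and 5.86 ± 0.52 in sedentary animals, a difference of 0.18 (adjusted p = 0.645). CD8A, the co-receptor of cytotoxic T cells, measured 7.05 ± 0.46 in exercised and 6.48 ± 0.70 in sedentary animals, a difference of 0.57 (adjusted p = 0.185). Each of the 3 differences was smallest without sedentary 8, at 0.15 log2 for CD3D, 0.00049 for CD3E and 0.34 for CD8A. Over the 16 fits that left out an animal they reached 0.24, 0.28 and 0.69, and CD3D alone passed, in 1 fit. A difference between CD3G and these genes was not tested.

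Of the other natural killer and cytotoxic cell genes, 10 of 33 were measured. Among their 12 probe sets 2 passed higher, 2 lower and 8 did not pass, 33.3% in all, with a median of 0.12 log2. GZMH, a granule serine protease, rose by 0.61 log2 to 7.04 ± 0.25 in exercised animals, against 6.44 ± 0.36 in sedentary animals (SD, n = 8 each, adjusted p = 0.00782). CTSW, a cathepsin of cytotoxic lymphocytes, rose by 0.25 (adjusted p = 0.0204). PRF1, which codes for perforin, the pore-forming partner of granzymes, fell by 0.72 log2 on its brighter set to 4.84 ± 0.092 in exercised animals, against 5.56 ± 0.12 in sedentary animals (adjusted p = 1.14e-05). The other PRF1 set stood at -0.02 (adjusted p = 0.877). IFNG, the interferon gamma gene, fell by 0.36 (adjusted p = 0.0292), and passed in 12 of the 16 fits that left out an animal (adjusted p up to 0.0572). On the 11 arrays with high poly-A controls 0 of these 12 passed higher by limma and 1 lower, with 2 higher and 2 lower at an unadjusted p under 0.05. IFNG and the brighter PRF1 set lay at the 21.7th and 34.7th percentiles of signal, and GZMH and CTSW at the 57.8th and 55.8th. In the bins of IFNG and this PRF1 set 26.6% and 26.1% of all probe sets passed.

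Of the other B cell and plasma cell genes, 7 of 31 were measured, and 1 of their 12 probe sets passed higher, 1 lower and 10 did not pass, 16.7% in all, with a median of -0.03 log2. Both that passed belong to SDC1, the plasma cell proteoglycan also made by epithelia, at 0.31 (adjusted p = 0.00392) and -0.26 (adjusted p = 0.0206), and its brightest set stood at -0.05 (adjusted p = 0.742). The SDC1 sets that passed lay at the 12.9th and 29.9th percentiles of signal, in bins where 21.9% and 26.6% of all probe sets passed. JCHAIN, which joins secreted antibody, stood at -0.58 (adjusted p = 0.39), XBP1, a plasma cell transcription factor, at -0.19 (adjusted p = 0.378) and CD40, a B cell co-stimulatory receptor, at 0.14 (adjusted p = 0.635, not its brightest set).

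Of the signalling genes shared by antigen receptors 17 of 29 were measured, and 2 of 26 probe sets passed higher, 2 lower and 22 did not pass, 15.4% in all. VAV1, a guanine nucleotide exchange factor of blood cells, rose by 0.42 log2 (adjusted p = 0.00234), and the GTPase gene RAC2 by 0.32 (adjusted p = 0.0334), neither on its brightest set. RAC2 passed in 10 of the 16 fits that left out an animal (adjusted p up to 0.0676). RASGRP1, an activator of Ras, fell by 0.25 (adjusted p = 0.00485) and the activation marker CD69 by 0.36 (adjusted p = 0.00918). The sets that passed lay between the 20.9th and 37.7th percentiles of signal, in bins where 26.1 to 26.6% of all probe sets passed.

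Markers of other blood and tissue cells were read beside these. Among 37 probe sets of macrophages, monocytes and dendritic cells 2 passed higher, 1 lower and 34 did not pass, 8.11% in all, with a median of 0.05 log2. ITGAM, an integrin of myeloid cells, rose by 0.54 (adjusted p = 0.00399) and S100A8, a calcium-binding protein of neutrophils and monocytes, by 0.49 (adjusted p = 0.0009). CD80, a co-stimulatory ligand, fell by 0.59 (adjusted p = 0.000108). These ITGAM, S100A8 and CD80 sets lay between the 23.4th and 30.8th percentiles of signal. In their bins of signal 26.1 to 26.6% of all probe sets passed. AIF1, among the genes most like GNLY in signal, stood at 0.43 (adjusted p = 0.0508). Their part in the members' differences was not tested.

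The mean signal of each list overlapped between groups. The mean over the T cell probe sets ran between 5.05 and 5.22 log2 on exercised arrays and between 4.90 and 5.18 on sedentary arrays. For the cytotoxic list it ran between 6.06 and 6.45 on exercised and between 5.79 and 6.34 on sedentary arrays. The B cell list gave 5.80 to 6.23 on exercised and 5.85 to 6.28 on sedentary arrays, and the macrophage list 6.91 to 7.37 on exercised and 6.83 to 7.54 on sedentary arrays. Among 8 probe sets of neutrophils, mast cells and platelets 1 passed higher and 1 lower, and among 22 of endothelial cells 0 passed higher and 1 lower. Of these endothelial sets 3 were positive, the median was -0.10 log2, and 0 were higher and 3 lower at an unadjusted p under 0.05. On the 11 arrays with high poly-A controls 3 of the endothelial sets passed lower, where 10.3% of all probe sets passed in either direction. There 6 endothelial and 6 fibroblast sets were lower at an unadjusted p under 0.05. Medians there were -0.17 log2 for endothelial, -0.20 for fibroblast, -0.13 for smooth muscle and -0.42 for erythroid sets. Adipocyte sets had a median of -0.06 and cardiomyocyte sets 0.05. On all 16 arrays 0 of 18 fibroblast probe sets passed by limma and 3 were lower at an unadjusted p under 0.05. Among 4 erythroid sets 0 passed on all 16 arrays and 1 was lower in that way. None of 7 smooth muscle and 7 adipocyte sets passed, adjusted or not. Among 24 cardiomyocyte sets 1 passed higher and 1 lower.

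**Figure D5:**
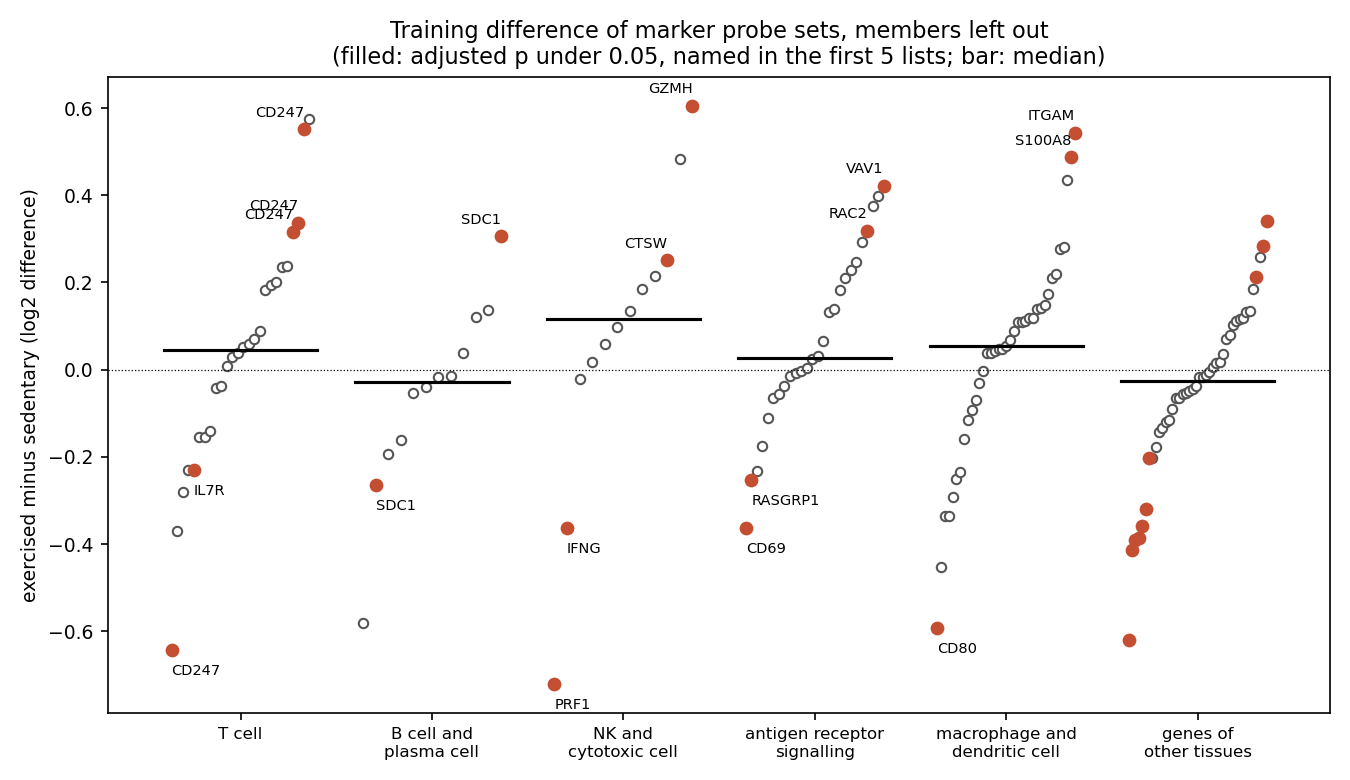
Exercised minus sedentary log2 difference (vertical axis) of each probe set in 6 gene lists, sorted within a list, filled where the adjusted p was under 0.05 and with the list's median as a bar. Each list holds sets above and below 0, with CD247 and SDC1 on both sides and PRF1 at -0.72 lowest of all.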

How the data were processed

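Biotin-labelled RNA from 16 ventricles was read on an Affymetrix porcine array of a single colour, per the labels. The authors deposited log2 signals per probe set; the summarisation and normalization are not given in the sources used here, and scanner files were not used. Values ran from 2.87 to 14.86, with array medians of 6.236 to 6.242, and no further normalization was applied. Of 24123 probe sets 188 controls were left out. Of the rest 10069 had a single symbol in the platform annotation, which can be old, 198 had several and 13668 none.

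A mean per training and sex group was fitted with limma (version 3.58.1, lmFit then eBayes; R 4.3.3; 12 residual and 3.5 prior degrees of freedom). Tests were two-sided, adjusted by Benjamini-Hochberg over 23935 probe sets, with a threshold of 0.05 and no fold limit. Every adjusted p of a gene is from limma. Correlations used all pairings of 8 animals (scipy 1.17.1, Python 3.11.15; the smallest possible p is 2.48e-05); the relation between the CD4 sets was added to that family after the data were seen. Figures used matplotlib 3.10.9. The fit was tested on simulated data.

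The named genes are the members, up to 4 genes per list with the smallest p, and the 3 most alike per member and measure. The members and lists were chosen with earlier results of these data known. The labels do not tie the animals' numbers to litters or days. The number of arrays limits the precision. Alternatives were other normalizations, filters on dim signal, gene means, the poly-A split, array weights, a trended and robust eBayes, no sex term, a replicate block and each animal left out.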

Additional observations from a re-analysis of the deposited data

Results flagged for a closer look

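In 3 of 10 checks of a group of 8 animals, the extreme animal stood farther from its nearest neighbour, relative to the group's range, than Dixon's 95% critical value of 0.526. Chance gives about 1 such case in 20 groups. For the CD4 set Ssc.16239.1.S1_s_at, exercised 2 was lowest at 3.67 log2, with the next exercised animal at 4.00 and a gap of 0.637 of the range. For the same set sedentary 6 was lowest at 3.50 log2, with the next sedentary animal at 3.66 and a gap of 0.547 of the range. For CD79B, exercised 1 was highest at 4.38 log2, with the next exercised animal at 4.19 and a gap of 0.560 of the range. Without exercised 2 the CD4 difference was 0.39 log2 and without sedentary 6 it was 0.31. Without exercised 1 the CD79B difference was 0.22 log2. All 3 passed.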

How the results depend on the processing

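Training called 3197 probe sets, and 4 of the 5 of the members. Above the 40th percentile of signal (5.57 log2) it called 631 and above the 60th (6.88 log2) 77; GNLY alone of the members lay there, with adjusted p values of 0.0547 and 0.115, so the members passing were 0 and 0. With probe sets averaged per gene it called 579 of 6765 genes (8.56%), and 3 of 4 members passed. On the arrays with high poly-A controls 2 members passed. In females the calls were 890, against 85 above the 40th percentile and 333 with the replicate block. In castrated males they were 902, against 56 above the 40th percentile, 1553 with the poly-A block and 402 with the replicate block. The sex difference called 22, and 13 with the replicate block.

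Leaving out 1 animal gave 2513 to 3108 training calls and 3 to 5 members passing. Of 36 named results under 27 settings, those of probe sets below a filter on dim signal had no value under that filter. Among the rest, 822 values kept direction and call, whether passing or not, 62 lost the call, 27 gained it and 5 changed sign. These 5 were CD4 at -0.0135, CD247 at 0.14 and SDC1 at -0.0435 with gene means, CD3E at -0.11 on the arrays with high controls, and CD40 at -0.00030 without exercised 7, in a range up to 0.204 without sedentary 1; the cause was not tested, except that averaging joins sets of opposite sign. Without the sex term the brighter CD4 set passed (adjusted p = 0.0487).

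The labels do not say whether replicate numbers pair the animals. Same-numbered animals deviated together at r of -0.03 to 0.39 (median 0.24), 5 of 8 above 0.1, with 1 pair best matched to its own number. With the replicate block 3528 probe sets (14.7%) and the same 4 members passed (CD3G 0.00605, CD4 0.0106, CD79B 0.0304 and GNLY 0.00849 as adjusted p). The block lowered the SE from 0.140 to 0.089 for CD3G and from 0.190 to 0.121 for GNLY. For CD79B the SE was 0.063 without and 0.065 with the block. Both animals numbered 7 and both numbered 8 had low poly-A controls, so the replicate numbers overlap with the poly-A split. With the poly-A split as the block the SE was 0.113 for CD3G, 0.187 for GNLY and 0.062 for CD79B. Pairing was not tested beyond these values, and the part of the poly-A split in them was not tested.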
